A study of Mus musculus with 6 samples.

Results

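Plac8 and 6 genes of the Ly6 family, Ly6a, Ly6c1, Ly6c2, Ly6d, Ly6e and Ly6k, were followed in regulatory T (Treg) cells with and without the AP-1 family transcription factor Batf. Of these 7 genes, 4 had at least 1 probe set annotated to that gene alone, out of 18193 genes measured in this way, and these 4 genes had 6 such probe sets. Plac8 and Ly6d had 1 each, and Ly6e and Ly6k had 2 each. Ly6c1 and Ly6c2 shared a probe set that was annotated to both, so neither has a value of its own here, and Ly6a was not analysed here. The genes were chosen by the difference between the genotypes, Plac8 because it was the gene with the largest increase and the Ly6 genes beside it with these values already known. The differences between genotypes below are therefore a description and carry no test.

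The cells were CD4+ cells, sorted fresh from C57BL/6 lymph nodes and spleen, that carry human CD2 as a reporter of Foxp3, the transcription factor that defines Treg cells. The 2 groups were FoxP3hCD2.Batf+/+ and FoxP3hCD2.Batf-/- mice, with 3 arrays each and no treatment or culture. The labels name no promoter or Cre that limits the loss of Batf to one cell type, give no age or sex of the mice, and do not say whether each array came from a separate mouse or from pooled mice, so spread between arrays may be partly technical. All values are log2 levels set against the middle of the 3 Batf+/+ arrays. They give differences for a gene and not its abundance, so the presence of Treg markers or of any cell type could not be read from absolute levels. In bulk RNA of this kind, fewer cells with a transcript and less transcript per cell cannot be told apart.

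Plac8 encodes a small cysteine-rich protein named for its expression in placenta and known from myeloid and lymphoid cells. Ly6 proteins are small, disulphide-rich proteins of the uPAR and Ly6 domain family, most of them held in the outer membrane by a lipid anchor. Several serve as surface markers: Ly6a (Sca-1) of stem cells and activated lymphocytes, Ly6c of inflammatory monocytes and memory-like T cells, and Ly6d of early B lineage cells. Ly6a, Ly6c and Ly6e are known to respond to interferon, and Ly6k is known from the male germ line.

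In the RefSeq annotation of the mouse build GRCm38.p6, Plac8 lies at chr5:100551589-100572253 and the Ly6 members lie close together on chromosome 15, from Ly6d at chr15:74762056-74763567 to Ly6c2 at chr15:75108161-75112066. Plac8 is shown by sequence because its level differed most. RefSeq windows for 2 start sites of Plac8 were given, both on the minus strand. The 250 bases before each start are written 5′ to 3′, with capitals for a CCAAT box, a short promoter element.
Plac8, chr5:100572206-100572455: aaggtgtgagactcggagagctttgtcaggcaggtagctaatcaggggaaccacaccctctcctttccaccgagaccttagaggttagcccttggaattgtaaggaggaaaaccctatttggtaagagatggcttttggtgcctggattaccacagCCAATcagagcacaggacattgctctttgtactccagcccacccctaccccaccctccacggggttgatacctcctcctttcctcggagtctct
Plac8, chr5:100563097-100563346: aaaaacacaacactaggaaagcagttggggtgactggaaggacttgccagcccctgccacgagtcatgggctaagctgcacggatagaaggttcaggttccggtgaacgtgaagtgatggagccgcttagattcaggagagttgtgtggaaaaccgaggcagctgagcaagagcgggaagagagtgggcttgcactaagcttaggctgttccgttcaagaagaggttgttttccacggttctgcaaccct

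Both strands of each window, with the first 50 bases after the start, were searched for 4 motifs linked to Batf or interferon. These were the AP-1 element TGANTCA, the composite element of AP-1 and interferon regulatory factors, the interferon-stimulated response element and the GAS element of STAT factors. The composite element contains the AP-1 letters, so any match to it is also a match to AP-1. Neither Plac8 window held any of the 4 motifs, and neither did the 2 windows of Ly6c1 or the 2 of Ly6c2. Of 32851 promoter windows of the same length, 7.81% held the AP-1 element, 0.119% the composite element, 3.44% the interferon-stimulated response element and 8.30% the GAS element. The CCAAT box, TATA box and GC box were searched in the same way. The first window of Plac8 held CCAAT, starting 94 bases before the start, and 37.4% of all windows held it. The second window held it within the first bases after the start, and neither window held a TATA box (letters TATAAA, in 13.6% of windows) or a GC box (letters GGGCGG, in 35.7%).

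Plac8 had the highest values of the members in Batf-/- cells. Its level was -0.18, 0 and 0.17 on Batf+/+ arrays 1, 2 and 3 and 2.46, 1.86 and 3.65 on Batf-/- arrays 1, 2 and 3. All 3 Batf-/- arrays lay above all 3 Batf+/+ arrays, with a gap of 1.70 between the groups. The means were 0.00 ± 0.17 (SD, n = 3) and 2.66 ± 0.91 (SD, n = 3), a log2 difference of 2.66 ± 0.37 (SE) or 6.33-fold. Arrays with the same number in their titles differed by 2.64, 1.86 and 3.48.

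The spread of Plac8 among Batf-/- arrays was wide. It comes from the same 3 Batf-/- values as the difference that chose Plac8. It is therefore not independent of that choice and is given as a description. Only 11 of the 18193 genes had a larger SD among Batf-/- arrays, while 3029 had a larger SD among Batf+/+ arrays. Batf-/- array 3 was the highest for Plac8, and leaving it out gave a log2 difference of 2.17. Leaving out Batf-/- array 2, the lowest of that group, gave 3.06.

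Ly6d, the B lineage marker, came next among the members. Its level was -0.07, 0 and 0.22 on Batf+/+ arrays 1, 2 and 3 and 0.50, 0.75 and 0.98 on Batf-/- arrays 1, 2 and 3. The groups did not overlap and lay 0.28 apart. The means were 0.05 ± 0.15 (SD, n = 3) and 0.75 ± 0.24 (SD, n = 3), a log2 difference of 0.69 ± 0.13 (SE) or 1.62-fold. Arrays with the same number differed by 0.57, 0.75 and 0.76, a narrower range than for Plac8.

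Ly6e, an interferon-inducible member found on thymocytes and activated lymphocytes, had a log2 difference of 0.14 ± 0.09 (SE) and overlapping arrays. The difference was 0.08 when Batf+/+ array 2 was left out and 0.09 when Batf-/- array 3 was. Its 2 probe sets differed in how the arrays fell. Probe set 1439773_at read 0.09, -0.05 and 0 on Batf+/+ arrays 1, 2 and 3 and 0.24, 0.25 and 0.21 on Batf-/- arrays 1, 2 and 3, with no overlap and a log2 difference of 0.22 ± 0.08 (SE). Probe set 1453304_s_at, whose suffix marks sequence shared with other transcripts, read 0.12, -0.21 and 0 against -0.06, -0.10 and 0.23 in the same order. These groups overlapped, with a log2 difference of 0.05 ± 0.12 (SE).

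Ly6k, the germ-line member, had a log2 difference of 0.33 ± 0.24 (SE) and overlapping arrays. Probe set 1452855_at read -1.04, 0 and 0.93 on Batf+/+ arrays 1, 2 and 3 and 0.33, 0.36 and 1.09 on Batf-/- arrays 1, 2 and 3. The Batf+/+ arrays alone thus covered nearly the whole range of both groups, and its SD there was 0.98. Probe set 1454071_at read -0.09, 0 and 0.07 against -0.08, 0.04 and 0.12, so the groups lay on top of each other. As a gene, Ly6k had a larger SD among Batf+/+ arrays than all but 49 of the 18193 genes. Its log2 difference became 0.06 when Batf+/+ array 1 was dropped and 0.59 when Batf+/+ array 3 was.

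**Figure D1:**
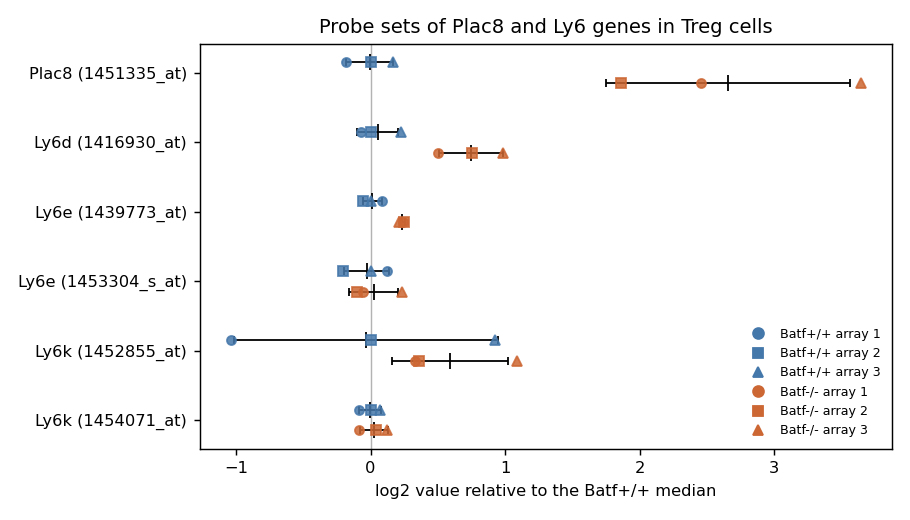
Level of each probe set of Plac8, Ly6d, Ly6e and Ly6k on the 6 arrays, as log2 values relative to the Batf+/+ median (x axis); blue points are Batf+/+ arrays, orange points Batf-/- arrays, and black bars the mean and SD of each genotype. Plac8 lies between 1.86 and 3.65 on Batf-/- arrays, far from its Batf+/+ arrays, while probe set 1452855_at of Ly6k spreads from -1.04 to 0.93 among Batf+/+ arrays.

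The array numbered 3 was the highest of its group in both genotypes for 3 of the 4 measured members, Plac8, Ly6d and Ly6k, and for 4 of the 6 probe sets. The same held for 22.4% of all genes.

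All 6 probe sets had a difference above 0. Of the 4 measured members, 2 did not overlap between the genotypes, both higher in Batf-/- cells, where 5.50% of all genes did the same and 12.0% separated in either direction. In the limma fit over all genes, 2 of the 4, Plac8 and Ly6d, were past an adjusted p of 0.05, against 1.14% of all genes in either direction and 0.313% higher. Since the same contrast chose the genes, nothing is read from these shares. Plac8 was not past it without Batf+/+ array 1 (log2 difference 2.57) or Batf+/+ array 2 (2.66) or after quantile normalization (2.22). Ly6d was past it only narrowly: it was not past it without Batf+/+ array 1 (0.63), 2 (0.67) or 3 (0.78), without Batf-/- array 2 (0.69) or 3 (0.58), after quantile normalization (0.56) or when every probe set was tested.

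**Figure D2:**
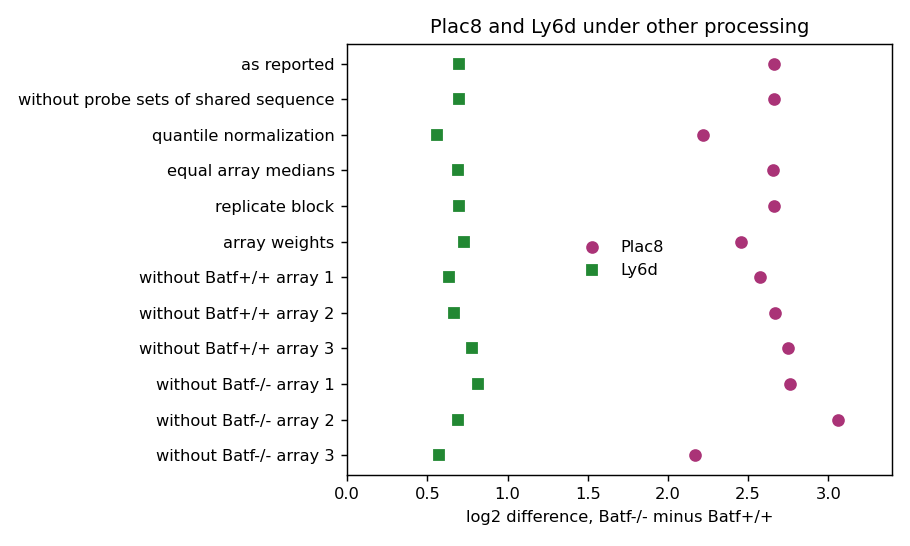
Log2 difference, Batf-/- minus Batf+/+ (x axis), of Plac8 (circles) and Ly6d (squares) as reported and under each alternative processing (y axis). Plac8 ranges from 2.17 to 3.06 and Ly6d from 0.56 to 0.82, always above 0.

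Genes next to Plac8 on chromosome 5 had log2 differences between -0.29 and 0.13. The 3 nearest measured genes on one side, 5430416N02Rik, Lin54 and Cops4, had log2 differences of 0.02, 0.10 and 0.12. On the other side Coq2, an enzyme of ubiquinone synthesis, had 0.13 ± 0.07 (SE), the heparan sulphate-cleaving enzyme Hpse -0.29 ± 0.08 (SE) and the helicase Helq -0.02 ± 0.07 (SE). None of these 6 genes was past the threshold (limma, lowest adjusted p 0.208). Arrays of Coq2 (0.06 to 0.16 against -0.07 to 0.01) and of Hpse (-0.37 to -0.18 against -0.01 to 0.08) did not overlap between the genotypes. The same held for 12.0% of all genes in either direction.

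Over the 6 arrays, the genes with values nearest to those of Plac8, by root mean square difference in log2 units, were Gbp2b (0.61), Vdr (0.65), Klk1b27 (0.73), Scin (0.78) and E330021D16Rik (0.81). Gbp2b is an interferon-inducible guanylate-binding protein, Vdr the vitamin D receptor, Klk1b27 a kallikrein protease and Scin an actin-severing protein. Gbp2b read 2.12, 1.73 and 2.21 on Batf-/- arrays 1, 2 and 3, and Vdr read 1.86, 1.86 and 2.20. Both were less spread than Plac8. Scin read 0.93, 0.88 and 3.53 on the same arrays, so most of its mean came from Batf-/- array 3, where Plac8 was highest as well. This likeness follows the genotype difference that chose Plac8 and is given without a test.

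**Figure D3:**
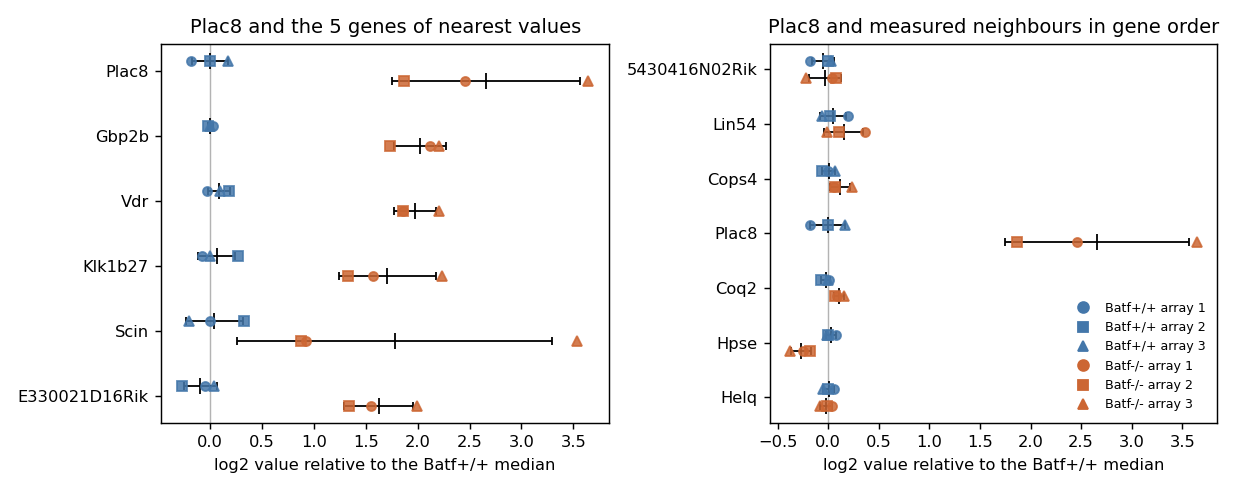
Log2 values relative to the Batf+/+ median (x axis) of Plac8 with the 5 genes of nearest values (left) and with the 3 measured genes on each side of it in gene order on chromosome 5 (right); points are arrays, black bars the mean and SD of each genotype. The genes on the left lie above 0.8 on every Batf-/- array, while the neighbours on the right stay between -0.37 and 0.37.

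The other genes with an uPAR or Ly6 domain lay close to 0. Of 25 measured genes of a list of 32, 0 were past the threshold in the limma fit (1 higher and 0 lower at an unadjusted p below 0.05), and 16 lay above 0. Their median log2 difference was 0.06, beside 0.0047 over all 18193 genes. It moved when single arrays were left out, to -0.00055, 0.10 and 0.11 for Batf+/+ arrays 1, 2 and 3 and to 0.10, 0.02 and 0.04 for Batf-/- arrays 1, 2 and 3, and it was 0.03 after quantile normalization. On chromosome 15, where the Ly6 members lie, 10 were measured, with a median of 0.05. Ly6i, whose gene lies near Ly6a and which had the highest value of the list, stood 0.34 ± 0.13 (SE) higher on the log2 scale, with a limma adjusted p of 0.526. It read 0.05, 0.48 and 0.52 on Batf-/- arrays 1, 2 and 3 against -0.11, 0 and 0.15, so the groups overlapped. Gpihbp1, which carries lipoprotein lipase across capillaries, had the lowest, -0.27 ± 0.16 (SE, adjusted p = 0.887). Lypd6b alone had arrays that did not overlap, with all Batf-/- arrays higher and a gap of 0.02. All Batf-/- arrays were higher for 5.50% of all genes, and 12.0% separated in either direction. Ly6i, Gpihbp1 and Lypd6b were picked out by their values. Plac8l1 and Cnfn, which share the protein domain of Plac8, had log2 differences of 0.08 ± 0.10 (SE) and -0.08 ± 0.08 (SE), neither past the threshold in the limma fit.

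**Figure D4:**
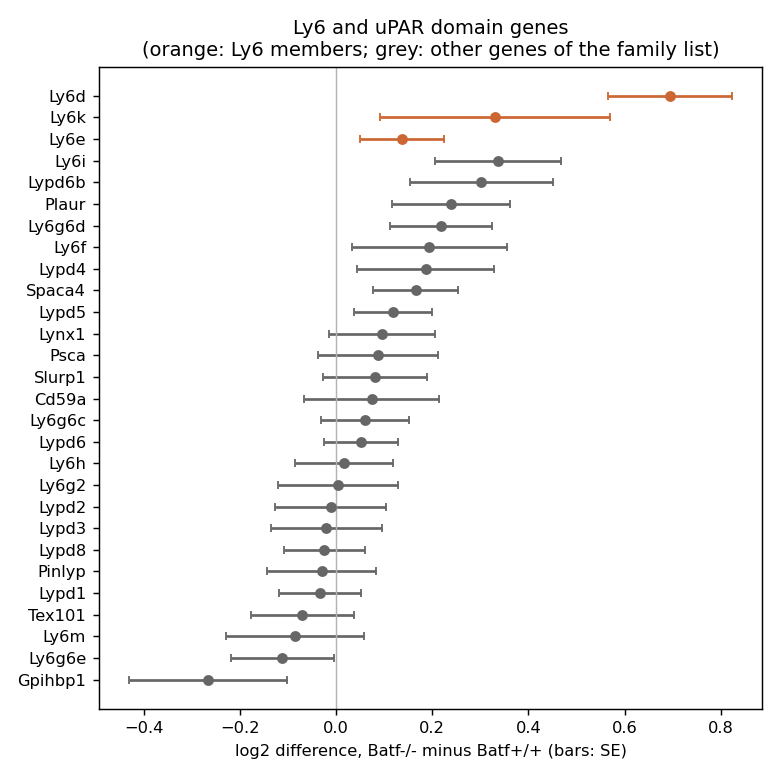
Log2 difference, Batf-/- minus Batf+/+ (x axis, bars SE), of the measured Ly6 members (orange) and of the 25 other measured genes of the uPAR and Ly6 domain list (grey), sorted by size within each group. Ly6d at 0.69 lies highest, and the others lie between -0.27 and 0.34.

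Interferon-induced genes were examined because several Ly6 genes respond to interferon. Of 27 measured genes 24 lay above 0, with a median log2 difference of 0.21, but 0 were past the threshold (limma; 7 higher and 0 lower at an unadjusted p below 0.05). The median was 0.34 without Batf+/+ array 2, 0.12 after quantile normalization and 0.11 with array weights. The interferon-inducible gene Gbp2b, which is not on the list, had a log2 difference of 2.02. It was named for its likeness in values to Plac8, so its difference follows from that choice and is given without a test. Batf+/+ array 2 stood apart, with a mean over the list of 0.46 beside -0.07 and -0.06 on the other Batf+/+ arrays, and 0.27 to 0.53 on Batf-/- arrays. Plac8 and Ly6d read 0 on that array, which only marks it as the middle of the 3 Batf+/+ arrays, and Ly6e read -0.13, its lowest. Whether the members follow the interferon-induced genes was not tested. Without Batf+/+ array 2, 3 genes of the list were past the threshold, Oas2 (log2 difference 0.80, adjusted p = 0.0497), Oasl1 (0.68, 0.0347) and Oasl2 (1.14, 0.0302), all higher. Without Batf-/- array 2, Gbp2 was (0.79, adjusted p = 0.0388). Oas2, Oasl1, Oasl2 and Gbp2 were picked out by their values.

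Genes of memory and effector T cells, a state that Ly6c marks in other T cells, were more often lower than higher in Batf-/- cells. Of 18 measured genes 8 fell, against 0.830% of all genes, and 0 rose. The list was chosen with earlier results of these data known, so nothing is read from its share. At an unadjusted p below 0.05, 10 were lower and 1 was higher, and 5 of the 18 lay above 0. Ifng, the cytokine interferon gamma, had the highest value, 0.50 ± 0.26 (SE, adjusted p = 0.774), and the T-box factors Eomes and Tbx21 had 0.41 ± 0.17 (adjusted p = 0.574) and 0.37 ± 0.29 (adjusted p = 0.956). The median of the list was a log2 difference of -0.55, and the list mean was -0.78 to -0.43 on Batf-/- arrays against -0.11 to 0.03. Cd44, the hyaluronan receptor used to tell memory from naive T cells, had a log2 difference of -0.64 ± 0.09 and a limma adjusted p of 0.0106. Its 4 probe sets ranged from -0.89 to -0.06. The others that fell were the receptors Klrg1, Il18r1 and Cxcr6, the integrin chain Itgb1, the repressor Prdm1, the death ligand Fasl and the chemokine Ccl5, whose call was lost with the array number as a replicate block (adjusted p 0.0768, beside 0.0285 without it). Leaving out Batf+/+ array 1 or 2 took the count to 4, and leaving out Batf-/- array 2, like quantile normalization, took it to 5. In the fits that lacked those arrays the adjusted p of Cd44 was 0.0543, 0.0590 and 0.0525 in turn. Without Batf-/- array 3, 9 genes fell, with Cxcr3 added (adjusted p = 0.000940).

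Of 13 measured resting T cell genes 12 lay above 0, with a median log2 difference of 0.15 and 0 past the threshold (limma; 2 higher and 1 lower at an unadjusted p below 0.05). Ccr9, a homing receptor of the small intestine, had the lowest value, -0.43 ± 0.08 (SE, adjusted p = 0.0553), which was past the threshold with array weights (0.0455). Il7r, the interleukin 7 receptor, was higher without Batf-/- array 3 (log2 difference 0.78, adjusted p = 0.0277, beside 0.49 and 0.667 with all arrays). Hopx, a homeodomain protein of memory and Treg cells, had a log2 difference of 0.09 ± 0.10 (SE) and was not past the threshold. Batf itself read -3.13, -3.16 and -2.37 on Batf-/- arrays 1, 2 and 3 and followed the labels, and Foxp3 had a log2 difference of -0.12 ± 0.08 (SE, adjusted p = 0.892). Of 5 Treg markers (Foxp3, Il2ra, Ctla4, Ikzf2 and Cd4) 0 were past the threshold in the limma fit, with 1 higher and 1 lower at an unadjusted p below 0.05 and a median log2 difference of -0.12, and Ikzf2 was lower with array weights (adjusted p = 0.0140).

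Plac8 and Ly6 genes are also expressed by myeloid, B lineage, plasmacytoid dendritic and endothelial cells, so markers of those cells are given beside them. Of 9 measured B cell markers, 9 monocyte and macrophage markers, 8 neutrophil markers, 9 plasmacytoid dendritic cell markers, 8 CD8 T and NK cell markers and 9 endothelial markers, 0 were past the threshold in the limma fit. Their median log2 differences ran from -0.01 for the CD8 T and NK cell markers to 0.12 for the plasmacytoid dendritic cell markers. At an unadjusted p below 0.05, 1 monocyte, 2 plasmacytoid dendritic, 1 CD8 T and NK and 1 endothelial marker were higher and 2 plasmacytoid dendritic markers lower. Eomes is on the CD8 T and NK list and on the memory and effector list, and is counted in both. Likewise, Ccr9 is on the plasmacytoid dendritic list and on the resting T cell list. The mean over the B cell markers was -0.02 to 0.21 on Batf-/- arrays and -0.10 to 0.09 on Batf+/+ arrays. That over the neutrophil markers was -0.14 to 0.10 and -0.11 to 0.11, that over the endothelial markers -0.00 to 0.10 and -0.10 to 0.13, and that over the CD8 T and NK markers -0.07 to 0.15 and -0.08 to 0.10.

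The monocyte and macrophage markers had a mean of 0.42 on Batf-/- array 3, the array where Plac8 was highest, against -0.06 and 0.05 on the other Batf-/- arrays and -0.10 to 0.08 on Batf+/+ arrays. Mpeg1, a pore-forming protein of macrophages, was highest, at 0.84, 0.20 and 1.61 on Batf-/- arrays 1, 2 and 3 and -0.55, 0 and 0.01 on Batf+/+ arrays, which gave 1.06 ± 0.31 (SE) as its log2 difference and 0.262 as its limma adjusted p. Without it the list mean on Batf-/- array 3 was 0.27. Batf-/- arrays 3, 1 and 2 were highest to lowest for Mpeg1 and for Plac8 alike. Gbp2b, Klk1b27, Oasl2 and Irf8 had this order too, and Vdr and Ly6d did not. These genes were named by their values, and the share of all genes with this order was not counted. Nothing is therefore read from the order. The plasmacytoid dendritic cell markers had a mean of 0.01 to 0.13 on Batf-/- arrays and -0.06 to 0.05 on Batf+/+ arrays. Of these, Irf8, a transcription factor also induced in T cells, read 0.52, 0.28 and 0.70 on Batf-/- arrays (adjusted p = 0.0919, and 0.0306 with the replicate block), and Pld4 was past the threshold with the block as well (0.0429). Irf8 was also past it without Batf-/- array 2 (0.0389). Among 8 epithelial markers (median -0.05) Epcam, an adhesion molecule, fell by 0.53 on the log2 scale (adjusted p = 0.0119). It missed the threshold when Batf+/+ array 1 (0.0654), Batf+/+ array 2 (0.0725) or Batf-/- array 2 (0.0542) was dropped, and after quantile normalization (0.140). The part of other cells in the levels of Plac8 and Ly6d was not tested, and because levels are relative, whether their defining markers are near background cannot be read. Mpeg1, Irf8, Pld4, Ccr9, Il7r, Ifng, Eomes, Tbx21 and Cxcr3 were picked out by their values.

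**Figure D5:**
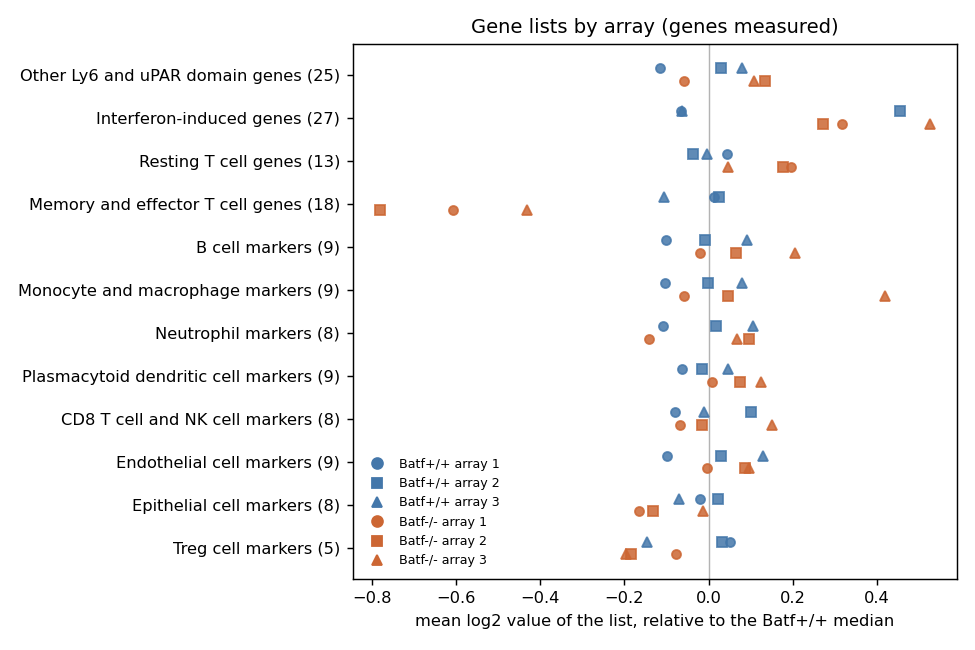
Mean log2 value of each gene list, relative to the Batf+/+ median (x axis), on each of the 6 arrays, with the number of genes measured in brackets. Memory and effector T cell genes lie below -0.4 on all Batf-/- arrays, interferon-induced genes are high on Batf+/+ array 2, and monocyte and macrophage markers are high on Batf-/- array 3.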

How the data were processed

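Total RNA of sorted Treg cells was measured on 6 single-colour arrays after 3' labelling with biotin. Per the submitters' processing notes the authors used RMA, with no version or log base given, and the deposited values are read here as log2 values. In all 45101 probe sets the median of the Batf+/+ arrays is exactly 0, so the deposited values are relative to it and absolute levels are lost. The base 2 is an assumption.

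Platform annotation gave 34945 probe sets with 1 gene, 932 with several, 9160 with none listed and 64 controls. Only the first kind was used, averaged per gene. Genotypes were compared with limma 3.58.1 in R 4.3.3 (lmFit, eBayes), tested on simulated data, with Benjamini-Hochberg adjustment over 18193 genes and a threshold of 0.05. SEs are those of the moderated fit. The number of arrays limits the precision.

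The members, lists and motifs were chosen with earlier results of these data known, and the CCAAT, TATA and GC boxes after the sequences were seen. Named were the members, fixed genes (Batf, Foxp3, Plac8l1, Cnfn, Cd44, Hopx and 1 that is not reported here), up to 3 called genes per list, the 5 genes nearest in value to Plac8 and 3 measured neighbours on each side; others are marked. The same rule for Ly6a could not be applied. Values of same-numbered arrays deviated together (correlations of 0.407, 0.154 and 0.413 across genes, each above 0.1). Arrays of unlike number were not compared in this way, so whether the numbers mark pairs is not known. The reported fit leaves the number out, and a fit with the number as a replicate block was run beside it. Promoters and coordinates are RefSeq's, build GRCm38.p6; windows were given for 3 of the 7 members.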

Additional observations from a re-analysis of the deposited data

Results flagged for a closer look

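The probe set annotated to both Ly6c2 and Ly6c1 was left out of the comparison because it cannot be assigned to either gene, and it carried a signal above its level in the Batf+/+ arrays. It read -0.24, 0 and 0.02 on Batf+/+ arrays 1, 2 and 3 and 0.44, 0.46 and 0.63 on Batf-/- arrays 1, 2 and 3. The groups did not overlap, with a log2 difference of 0.58 and means of -0.07 ± 0.15 (SD, n = 3) and 0.51 ± 0.11 (SD, n = 3). Of all genes, 5.50% had all Batf-/- arrays higher and 12.0% separated in either direction. Ly6c1 and Ly6c2 were chosen with values of this contrast known, so nothing is read from the separation. The difference was not tested.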

How the results depend on the processing

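The log2 differences of Plac8, Ly6d, Ly6e and Ly6k stayed above 0 under each alternative run. Of the members, 2 were past the threshold as reported and with the replicate block, 1 when every probe set was tested, 0 after quantile normalization and 0 to 2 when single arrays were left out. Over all genes 57 were higher and 151 lower as reported. The counts were 23 and 58 after quantile normalization. They were 91 and 202 with the replicate block and 72 and 205 with array weights. Leaving out single arrays gave 31 to 51 higher and 73 to 141 lower. Higher genes numbered 31, 32 and 32 without Batf+/+ array 1, 2 or 3 and 36 without Batf-/- array 1, and lower genes 78, 73 and 94 without Batf+/+ array 1, Batf+/+ array 2 or Batf-/- array 2. Fewer samples enter these fits; for the other alternatives the cause was not tested. Among gene lists, interferon-induced genes had 0 to 3 higher genes and resting genes 0 to 1 when single arrays were left out, and resting genes had 1 lower with array weights. Memory and effector genes had 5 lower after quantile normalization and 4 to 9 without single arrays. The replicate block changed no call of a member and, among lists, only those of Irf8 and Pld4, which it added, and Ccl5, which it lost. Quantile normalization puts the centred Batf+/+ arrays, narrower by construction, and the Batf-/- arrays onto the same distribution. Background correction, a filter on dim probe sets and scan or slide as a block were not run, since the values keep no absolute level.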
